A study of Homo sapiens with 95 samples.

Results

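The response of AALE cells overexpressing PIK3CA to cigarette smoke condensate (CSC) was read in 6 of the 95 deposited libraries, namely 3 of PIK3CA cells with CSC at 24 μg/ml and 3 of PIK3CA cells with the vehicle DMSO. AALE cells are bronchial epithelial cells of human origin that were immortalized in culture. The PIK3CA line carried an overexpression construct for the catalytic subunit p110α of phosphoinositide 3-kinase, and the matched HcRed line carried the control vector, so that all 4 groups share the same parent line and a vector. For HcRed cells, 3 libraries with CSC and 3 with DMSO were set beside them, and the other 83 libraries of the series hold 6 further lines and 2 further compounds. Libraries were made by sparse full length (SFL) sequencing, in which ribosomal RNA is depleted and many barcoded samples are read together. Cells were confluent before exposure, and how long CSC was present is not given in the sources used here. All results hold for 1 line with forced expression of 1 gene, and the labels number the replicates without saying which cultures they came from, so that p-values measure the spread between these libraries.

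CSC is a mixture of the particulate compounds of tobacco smoke. Its polycyclic aromatic hydrocarbons bind the aryl hydrocarbon receptor (AhR), which pairs with ARNT and switches on cytochrome P450 genes of the CYP1 family together with its own repressors TIPARP and AHRR. Reactive smoke compounds release the transcription factor NRF2 from KEAP1, and NRF2 then induces genes of glutathione, thioredoxin, NADPH and iron metabolism. PI3K with p110α turns growth factor signals into activation of AKT and mTOR, and PIK3CA is amplified or mutated in squamous lung tumours.

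Between 800978 and 1653947 reads were counted in the 6 PIK3CA libraries, and between 694898 and 1440757 in the 6 HcRed libraries. At this depth 3 counts correspond to between 1.81 and 3.75 counts per 1000000 reads (CPM) in PIK3CA cells with CSC, before scaling. The first principal component of the 6 PIK3CA libraries held 54.4% of the variance and placed all CSC libraries on one side and all DMSO libraries on the other. The overexpressed gene itself (PIK3CA, hg19 chr3:178865902-178957881, plus strand) had 612, 518 and 546 CPM in PIK3CA cells with DMSO and 506, 478 and 527 CPM with CSC, against 62.9 to 91.7 CPM in the 6 HcRed libraries. The PIK3CA and HcRed libraries thus did not overlap, and with DMSO the difference was 2.65 on the log2 scale (SE 0.11, limma-voom adjusted p = 3.6e-30). With CSC its log2 change in PIK3CA cells was -0.12 (SE 0.06, adjusted p = 0.15). This became 0.31 (limma-voom adjusted p = 0.00016) after the correction for GC content described next. That correction took GC content and length from the longest annotated transcript and not from the construct. The libraries had the keratins of basal bronchial cells, with KRT5 at 2384 to 3099 CPM in the 6 PIK3CA libraries. Of 18 markers of fibroblasts, endothelium, leukocytes and alveolar cells only DCN, CD14, COL1A1 and CD68 passed the count filter, of which CD68, also a lysosomal gene, was called (1.24, SE 0.24), and 6, among them PECAM1 and PTPRC, were at 0 in all 12 libraries.

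CSC changed a large share of the transcriptome of PIK3CA cells. Of 14403 genes with a mean count above 1, 1630 rose (11.3% of those tested) and 1624 fell (11.3%) at a limma-voom adjusted p under 0.05, and 4789 had an unadjusted p under 0.05. The typical size was small, since the median absolute log2 change of the called genes was 0.55, and 295 rose and 83 fell by at least 2-fold. In HcRed cells 1823 genes rose (12.7% of 14410) and 1603 fell (11.1%).

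The direction of change followed the base composition of the transcripts. Among the genes in the lowest of 5 bins of GC content (29.2 to 40.3% GC), 26 rose and 930 fell in PIK3CA cells, while in the highest bin (57.5 to 86.4% GC) 820 rose and 6 fell. The median log2 change climbed from -0.32 to 0.45 across these bins, and in HcRed cells from -0.36 to 0.54. Genes that rose had a mean GC content of 57.1% and genes that fell of 40.3%, against 48.8% for the others. When a smooth trend of each library with GC content and transcript length was removed, 717 genes rose (5.32% of 13485) and 404 fell (3.0%), so that rises made up 64.0% of the calls in place of 50.1%. Of the genes called without the correction, 465 rises and 299 falls kept their call. Whether the trend came from the cells or from library preparation cannot be told apart here, so counts with the correction are given beside the gene groups below, as rises and falls. The shares of all tested genes to set beside each group are 11.3% rising and 11.3% falling, or 5.32% and 3.0% with the correction.

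**Figure D1:**
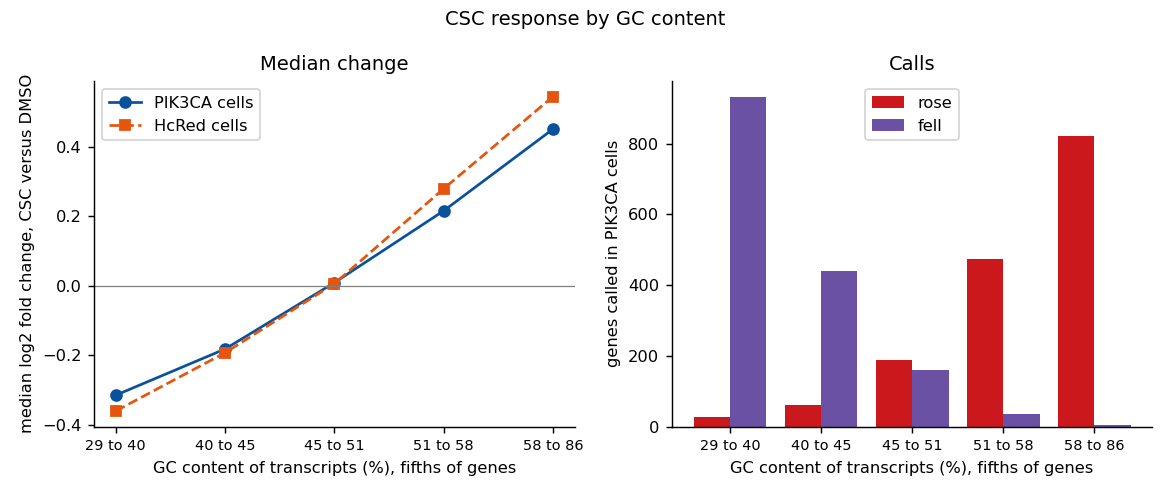
Left, median log2 fold change (CSC versus DMSO) of genes in 5 bins of transcript GC content (%), for PIK3CA cells (circles) and HcRed cells (squares). Right, number of genes called as rising or falling in PIK3CA cells in each bin, where 26 genes rose and 930 fell in the lowest bin, and 820 rose and 6 fell in the highest bin.

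Most of the response was shared with HcRed cells, whose libraries are separate from those of PIK3CA cells. Of 13853 genes tested in both lines, 3241 were called in PIK3CA cells and 3417 in HcRed cells, and 2150 in both. The shared genes made up 66.3% of the PIK3CA calls and 62.9% of the HcRed calls, and 2149 of them moved in the same direction. Of the PIK3CA calls, 97.8% had the same sign in HcRed cells. Across the 13853 genes the log2 changes of both lines had a Pearson correlation of 0.55. It was 0.78 across the 10439 genes that averaged 10 counts or more in the PIK3CA libraries. Both values are descriptions over genes that are not independent and that share the GC trend.

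Among the gene lists the AhR target genes had the highest median log2 change. The AhR and ARNT bind the core GCGTG, and NRF2 binds elements with the core TGACNNNGC. The promoters shown are examples of members that rose, 3 AhR targets and 2 NRF2 targets, and were picked because the window holds the core of that factor. Each window below covers 250 bases before a RefSeq start site (GRCh38.p14), is written 5′ to 3′ on the strand of the gene, and has in capitals the core of its own factor on either strand, while matches to the core of the other factor are not marked. The windows are CYP1A1 at chr15:74725529-74725778 (minus strand, core 57 bases before the start), TIPARP at chr3:156674340-156674589 (plus, 208 and 142 bases), AHRR at chr5:321464-321713 (plus, 30 bases), GCLM at chr1:93909431-93909680 (minus, 34 bases) and TXNRD1 at chr12:104286782-104287031 (plus, 102 bases).
CYP1A1: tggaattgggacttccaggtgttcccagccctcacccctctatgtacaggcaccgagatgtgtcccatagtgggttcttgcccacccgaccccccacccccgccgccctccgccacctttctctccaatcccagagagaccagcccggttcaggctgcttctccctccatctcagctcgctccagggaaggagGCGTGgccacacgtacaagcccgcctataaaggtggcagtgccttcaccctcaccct
TIPARP: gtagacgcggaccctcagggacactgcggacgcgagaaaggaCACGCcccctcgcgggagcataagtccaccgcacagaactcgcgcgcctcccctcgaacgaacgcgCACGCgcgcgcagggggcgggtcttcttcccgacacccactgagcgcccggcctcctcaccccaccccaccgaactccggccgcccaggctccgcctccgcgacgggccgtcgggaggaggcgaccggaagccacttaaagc
AHRR: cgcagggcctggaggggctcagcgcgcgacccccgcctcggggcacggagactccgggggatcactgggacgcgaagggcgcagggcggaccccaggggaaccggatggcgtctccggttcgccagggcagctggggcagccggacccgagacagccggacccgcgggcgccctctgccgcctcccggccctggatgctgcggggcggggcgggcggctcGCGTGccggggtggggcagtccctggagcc
GCLM: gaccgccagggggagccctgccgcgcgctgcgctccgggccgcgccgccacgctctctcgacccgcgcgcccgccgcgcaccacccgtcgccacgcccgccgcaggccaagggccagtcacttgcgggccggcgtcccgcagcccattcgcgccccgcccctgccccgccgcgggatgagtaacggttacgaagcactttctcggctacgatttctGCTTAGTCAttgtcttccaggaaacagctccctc
TXNRD1: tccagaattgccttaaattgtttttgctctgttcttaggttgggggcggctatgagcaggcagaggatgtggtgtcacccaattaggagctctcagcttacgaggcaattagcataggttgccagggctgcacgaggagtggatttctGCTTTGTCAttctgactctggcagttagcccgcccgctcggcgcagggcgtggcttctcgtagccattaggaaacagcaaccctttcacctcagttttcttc
GCGTG occurred in 6 of 16 windows of the AhR target genes (9 of 11 genes had a window) and in 32.2% of all 35116 windows. TGACNNNGC occurred in 8 of 29 windows of the NRF2 target genes (23 of 33 genes had a window) and in 10.9% of all windows. Of the AhR targets that rose, SERPINB2 had no match and TIPARP had matches in 1 of its 3 windows, while UGT1A6, which was not called, had a match in 1 of 2. A match is a description of the sequence and not evidence of binding, and CYP1B1 and ALDH3A1 had no window in the table used.

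CYP1A1, which oxidises polycyclic aromatic hydrocarbons, had the largest rise of all genes that met the naming rule. Its gene lies at hg19 chr15:75011883-75017877 on the minus strand. In PIK3CA cells it had 5.86, 5.38 and 5.46 CPM with DMSO (6, 8 and 6 counts) and 119.9, 133 and 146 CPM with CSC (132, 106 and 240 counts). The groups lay far apart, and the log2 change was 4.49 (SE 0.33, limma-voom adjusted p = 5.7e-18), or 22.5-fold. Summed over libraries the ratio was 24.6, with an exact 95% interval of 15.7 to 40.6 that covers counting error only.

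In HcRed cells CYP1A1 had 2, 0 and 0 counts with DMSO and 436, 359.5 and 219.6 CPM with CSC. The fitted log2 change of 8.48 rests on those 2 counts, and the ratio of summed counts was 507 with a counting interval of 140.2 to 4194. CYP1A1 in PIK3CA cells with DMSO was thus at 20 counts in 3674780 reads, against 2 in 2900312 in HcRed cells, and with CSC all 3 PIK3CA libraries lay below all 3 HcRed libraries. The difference between the changes was -4.00 on the log2 scale (SE 1.05), with a limma-voom adjusted p of 0.46 over all 14575 genes, so that it did not pass the threshold. In edgeR's quasi-likelihood test of the same term the adjusted p was 0.021, and in limma-voom it was 0.016 without HcRed CSC replicate 3 and 0.027 with the replicate block and GC correction together. Scaled over all 95 libraries, the CSC level was 124 to 150 CPM in PIK3CA cells, next to 171 to 250 CPM in NRG1 cells, and at or above 223 CPM in each of the 6 other lines, a description of levels with 2 or 3 libraries a line. With DMSO the median on this scale was lowest in HcRed cells (0 CPM), then in NRG1 cells (1.21) and PIK3CA cells (5.66). In the remaining lines it ran from 7.75 CPM in GFP cells to 18.5 CPM in CDKN2A cells.

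CYP1B1, the second CYP1 enzyme, was measured with more reads (hg19 chr2:38294116-38337044, minus strand). It had 49.8, 43.1 and 63.7 CPM in PIK3CA cells with DMSO and 266, 286 and 346 CPM with CSC. The groups did not overlap and the log2 change was 2.58 (SE 0.13, limma-voom adjusted p = 4.9e-25). HcRed cells went from 99.2 to 111 CPM with DMSO to 870.4 to 965 CPM with CSC, a log2 change of 3.11 (SE 0.10). PIK3CA cells had less CYP1B1 than HcRed cells already with DMSO, by a log2 difference of -1.08 (SE 0.16, adjusted p = 3.6e-07). The changes differed by -0.54 (SE 0.17, limma-voom adjusted p = 0.79).

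The repressors of the AhR also rose. TIPARP, which ADP-ribosylates the AhR, had 121, 109.7 and 122 CPM with DMSO and 281, 311 and 333 CPM with CSC. Its groups did not overlap and its log2 change of 1.41 (SE 0.10) stood beside 1.53 (SE 0.11) in HcRed cells. AHRR, which competes for ARNT, had 2, 1 and 4 counts with DMSO and 9, 3 and 16 counts with CSC, so that it was at most 9.72 CPM in any PIK3CA library, and its log2 change of 1.98 (SE 0.61, limma-voom adjusted p = 0.012) passed the test. ALDH3A1, an aldehyde dehydrogenase, went from 2, 3 and 1 counts to 7, 6 and 11 counts (log2 change 1.83, SE 0.60, adjusted p = 0.020), and with DMSO its difference between PIK3CA and HcRed cells was -2.56 on the log2 scale (SE 0.62, adjusted p = 0.0036).

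Of the 11 AhR target genes listed, 9 were tested, and 7 rose and 0 fell, with a median log2 change of 1.83, against -0.0011 over all genes tested. SERPINB2, an inhibitor of urokinase, had 2.93, 2.69 and 1.82 CPM with DMSO and 40.9, 36.3 and 21.9 CPM with CSC. It rose by 3.39 (SE 0.50) beside 2.18 (SE 0.42) in HcRed cells. The last member that rose was EREG, the EGF receptor ligand epiregulin (1.23, SE 0.15). UGT1A6 with 1 to 3 counts a library (-0.56, SE 0.77) and NEDD9 (-0.53, SE 0.27) did not pass the test, and CYP1A2 and ASB2 had too few counts to be tested. In HcRed cells 7 rose and 0 fell with a median of 2.18. After GC correction 5 rose in PIK3CA cells, and AHRR (adjusted p = 0.071) and ALDH3A1 (adjusted p = 0.13) did not. The transcripts of the receptor itself (AHR, -0.13, SE 0.10) and of ARNT (-0.09, SE 0.15) did not pass the test, while its chaperone HSP90AA1 fell by 0.33 on the log2 scale (SE 0.03). Of the 8 genes of the receptor and its partners, 1 rose and 4 fell, against 0 and 2 after GC correction.

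**Figure D2:**
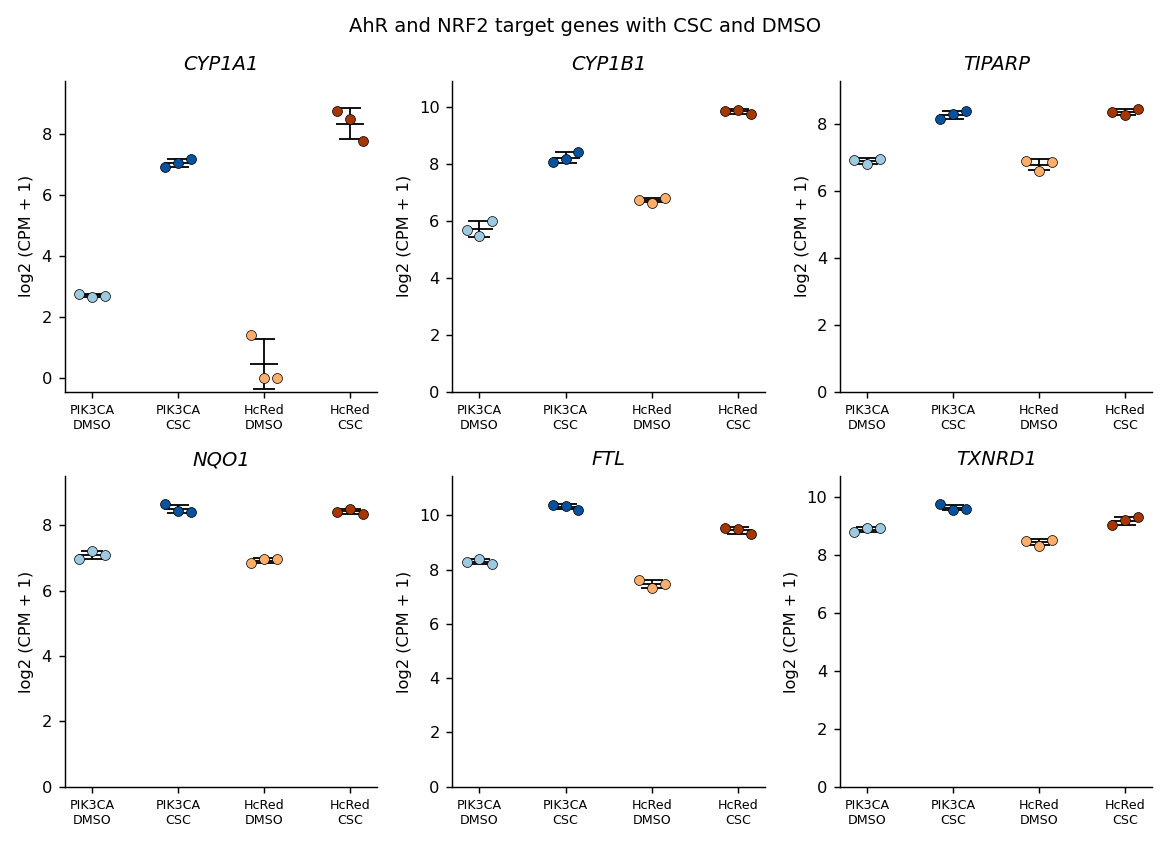
Level of 3 AhR targets (CYP1A1, CYP1B1, TIPARP) and 3 NRF2 targets (NQO1, FTL, TXNRD1) as log2 (CPM + 1) in the 3 libraries of each group (points), with mean and SD (bars). In each panel the CSC libraries lie above the DMSO libraries of the same line, and with CSC the PIK3CA libraries lie below the HcRed libraries for CYP1A1 and CYP1B1.

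The NRF2 target genes rose as a group. Of 33 listed and tested genes, 23 rose, 0 fell and 10 did not pass the test, with a median log2 change of 0.77. The corresponding counts were 22 and 0 in HcRed cells (median 0.81), and 22 and 0 in PIK3CA cells after GC correction (median 0.71). FTL and FTH1 encode the subunits of ferritin, which stores iron. FTL had 314, 334 and 296 CPM with DMSO and 1343, 1294 and 1190.4 CPM with CSC, without overlap, and its log2 change was 1.99 (SE 0.06, limma-voom adjusted p = 1.1e-36) beside 1.96 (SE 0.09) in HcRed cells. FTH1 rose by 1.23 (SE 0.05), and both ferritin genes have many near-identical pseudogenes between which reads could be split in counting.

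NQO1, a quinone reductase that detoxifies smoke quinones, had 125, 147 and 136 CPM with DMSO and 399, 346 and 343 CPM with CSC. These groups did not overlap, and the log2 change of 1.39 (SE 0.09) stood beside 1.51 (SE 0.11) in HcRed cells. SQSTM1, the autophagy receptor p62, rose by 1.18 (SE 0.08) and TXNRD1, thioredoxin reductase, by 0.74 (SE 0.06). SLC7A11, the cystine importer, rose by 0.45 (SE 0.08) and GCLM and GCLC, the subunits of glutamate-cysteine ligase, by 0.42 (SE 0.11) and 0.70 (SE 0.11). The pentose phosphate enzymes TKT (0.67, SE 0.06) and PGD (0.48, SE 0.09) rose too. AKR1C1, AKR1C2 and AKR1C3 rose by 2.41, 2.20 and 1.68, but each had at most 19 counts in any PIK3CA library and they are close copies of each other. HMOX1 (0.76, SE 0.53) at 1 to 11 counts, GSR (0.05, SE 0.09) and ME1 (0.10, SE 0.12) did not pass the test.

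The transcript of NRF2 itself (NFE2L2) fell by 0.34 on the log2 scale (SE 0.09, limma-voom adjusted p = 0.0040). That call was lost after GC correction (-0.07, adjusted p = 0.72), in DESeq2's Wald test (-0.30, adjusted p = 0.12), without PIK3CA CSC replicate 3 (-0.20, adjusted p = 0.16) and without PIK3CA DMSO replicate 2 (-0.25, adjusted p = 0.099). KEAP1, the inhibitor of NRF2, rose by 0.68 (SE 0.15), and its corrected value was 0.29 with an adjusted p of 0.27. The small MAF partners MAFG (0.77, SE 0.16) and MAFF (1.37, SE 0.26) rose with and without the correction. Of 9 tested genes of NRF2 and its regulators, 4 rose and 1 fell, against 3 and 0 after correction. Of 4 tested metallothioneins, which bind heavy metals such as cadmium, 3 rose (2 after correction), led by MT2A from 944 to 1207 CPM with DMSO to 2158 to 2810.5 CPM with CSC (log2 change 1.16, SE 0.06). Metallothionein genes are near copies of each other.

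Growth factor and ERK target genes rose alongside. Of 16 tested immediate early genes 14 rose and 0 fell (median log2 change 1.29, in HcRed cells 14 and 0 with a median of 1.15, after GC correction 12 and 0). EGR1, an early transcription factor, had 227, 160.2 and 140.1 CPM with DMSO and 501, 504 and 552 CPM with CSC, a log2 change of 1.62 (SE 0.09) without overlap of the groups. In HcRed cells it rose by 2.20 (SE 0.13), and the difference of -0.59 (SE 0.17) had a limma-voom adjusted p of 0.64. FOSL1, a subunit of AP-1, had 25, 34 and 4 counts with DMSO and 91, 64 and 91 with CSC (log2 change 2.29, SE 0.30). The low count was that of PIK3CA DMSO replicate 3, without which the log2 change was 1.53. FOS (1.86, SE 0.22), JUN (1.38, SE 0.18) and the growth regulator MYC (1.32, SE 0.11) rose as well, while JUND lost its call after GC correction (0.71 before and 0.04 after).

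Of 14 tested ERK feedback genes, 9 rose and 0 fell (median 1.18, after GC correction 8 and 0). SPRY4, an inhibitor of receptor tyrosine kinase signalling, rose from 17, 18 and 14 counts to 78, 55 and 92 counts (log2 change 2.19, SE 0.24), without overlap. The ERK phosphatases DUSP1 (1.70, SE 0.09), DUSP6 (1.51, SE 0.17), DUSP4 (1.29, SE 0.12) and DUSP5 (1.29, SE 0.27) rose too. In HcRed cells 12 of the 14 rose (median 1.47). SPRY2, another inhibitor of that signalling, was called there at 1.46 (SE 0.38) and had a change of 0.19 (SE 0.37) in PIK3CA cells, but the difference between the lines (-1.26, SE 0.54) had a limma-voom adjusted p of 0.94. Of 7 tested EGF receptor ligands 5 rose (4 after correction), namely EREG, AREG (2.54, SE 0.47), EPGN (2.89, SE 0.52), HBEGF (0.79, SE 0.28) and TGFA (0.56, SE 0.14). AREG and EPGN rest on 1 to 6 counts a library with DMSO and on 11 to 30 with CSC, and without PIK3CA DMSO replicate 2 their log2 changes were 1.87 and 2.0. HBEGF lost its call after GC correction (adjusted p = 0.10).

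Some genes of the PI3K pathway were called. Of 28 tested components 5 rose and 0 fell, with a median log2 change of 0.05, where 11.3% of all genes rose and 11.3% fell. After GC correction 4 rose and 0 fell, where 5.32% of all genes rose and 3.0% fell. In HcRed cells 6 of the 28 rose and 2 fell (median 0.04), against 2 and 0 after GC correction. The 5 that rose in PIK3CA cells were the kinases AKT1 (0.46, SE 0.11) and AKT2 (0.51, SE 0.13), the mTOR partner RPTOR (0.48, SE 0.12), the AKT phosphatase PHLPP1 (0.50, SE 0.17) and the translation repressor EIF4EBP1 (0.60, SE 0.15). None of these 5 kept its call after GC correction, where their adjusted p lay between 0.35 and 0.80 and the genes called instead were PIK3CA, RICTOR, INPP4B and GSK3B. Of 19 FOXO targets, which AKT represses, 3 rose and 2 fell (2 and 0 after correction). IRS2, an insulin receptor substrate, rose by 0.92 (SE 0.12), and TXNIP, an inhibitor of glucose uptake, fell by 0.56 (SE 0.16). After correction the TXNIP value was -0.39 (adjusted p = 0.12).

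Stress, hypoxia and nutrient genes moved in part. ANGPTL4, a lipase inhibitor of the hypoxia and PPAR programmes, had the second largest rise by the naming rule, from 6, 8 and 4 counts to 102, 68 and 109 counts (log2 change 3.88, SE 0.36) beside 3.74 (SE 0.64) in HcRed cells. Its groups did not overlap in either line. Of 23 tested genes of glycolysis and hypoxia, 12 rose and 0 fell (median 0.48, after GC correction 11 and 0), among them NDRG1 (1.35, SE 0.10), the lactate exporter SLC16A3 (1.05, SE 0.08), VEGFA (0.99, SE 0.15) and the glucose transporter SLC2A1 (0.84, SE 0.12). Of 23 amino acid response genes under ATF4, 11 rose and 0 fell (6 and 0 after correction), led by TRIB3 (1.27, SE 0.19) and the amino acid transporter SLC7A5 (0.94, SE 0.03). Of 16 heat shock chaperones 0 rose and 9 fell (median -0.24, after correction 0 and 6), among them HSPA8 by 0.24 and HSPD1 by 0.38 on the log2 scale.

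Of 26 tested p53 targets, 4 rose and 4 fell, near the 11.3% of all genes that were called in each direction. In HcRed cells 7 rose and 1 fell. CDKN1A, the cyclin-dependent kinase inhibitor p21, had 86.9, 104 and 91.9 CPM with DMSO and 255, 260.1 and 210.1 CPM with CSC, a log2 change of 1.30 (SE 0.11, limma-voom adjusted p = 1.2e-15) without overlap, beside 1.19 (SE 0.11) in HcRed cells. PLK3, GDF15 and the death receptor TNFRSF10B were the other 3 that rose. MDM2, the p53 inhibitor, had a change of -0.11 (SE 0.08). After GC correction CDKN1A and TNFRSF10B rose and POLH fell.

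Some inflammatory genes rose from low counts. Of 22 listed cytokines and NF-κB targets 16 were tested and 5 rose (5 also after correction), namely IL1A (1.76, SE 0.16), IL1B (1.97, SE 0.36), CSF3 (2.90, SE 0.47), CCL20 (1.44, SE 0.48) and IL24 (2.82, SE 0.85). IL1A was the best measured of them, with 40, 61 and 25 counts with DMSO and 129, 96 and 187 with CSC. CSF3, encoding granulocyte colony-stimulating factor, had 3, 5 and 2 counts with DMSO and 27, 15 and 40 with CSC. In HcRed cells CSF3 had 0 or 1 counts with DMSO and 3 to 5 with CSC. IL24 rests on 0, 1 and 0 counts with DMSO, and CCL20 overlapped between the groups in counts. Of 20 tested interferon-stimulated genes 0 rose and 7 fell, and none of the 19 tested with the correction was called.

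**Figure D3:**
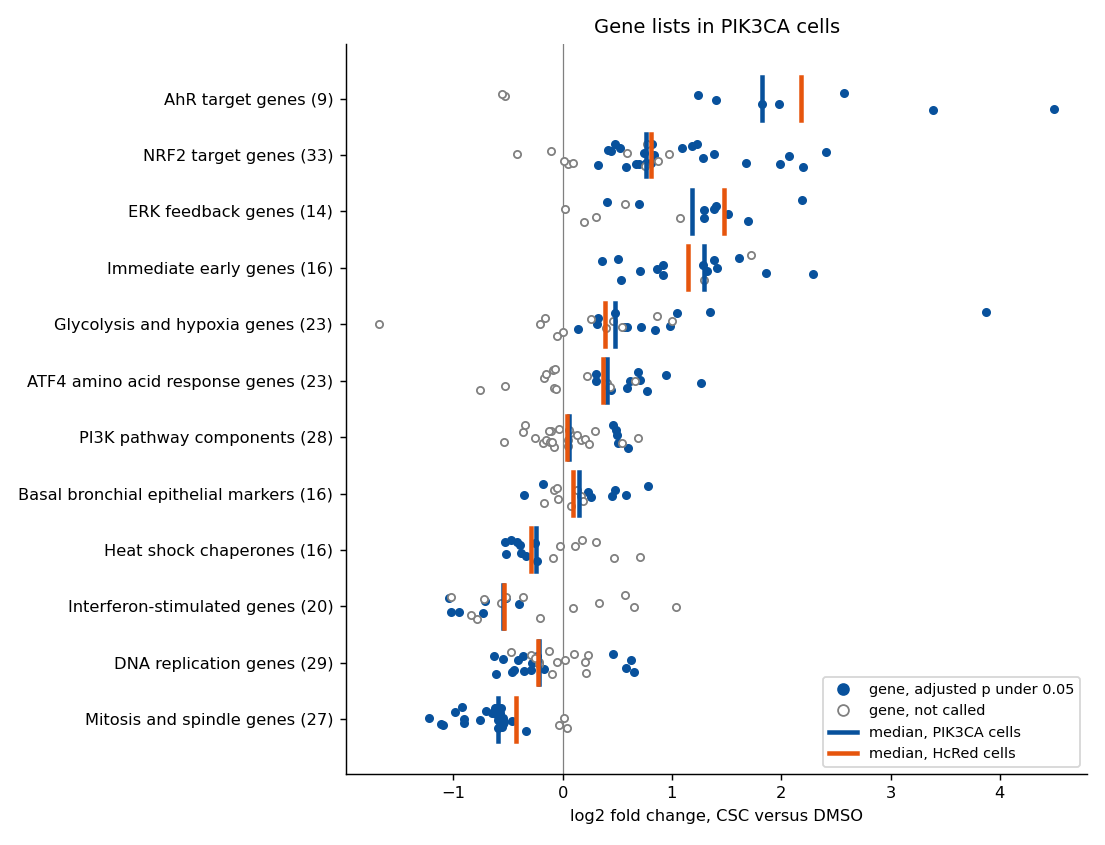
Log2 fold change (CSC versus DMSO) of each tested member of 12 gene lists in PIK3CA cells (points, filled where the adjusted p was under 0.05), with the number tested in parentheses and the median in PIK3CA cells (blue line) and HcRed cells (orange line). The medians of the AhR, NRF2, ERK feedback and immediate early lists lie at 0.77 or above, and that of the mitosis list lies at -0.59.

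Genes of mitosis fell together. Of 27 tested genes of mitosis and the spindle, 24 fell and 0 rose, with a median log2 change of -0.59, and 24 fell also after GC correction (median -0.54). CENPE, a motor protein of the kinetochore, had 819, 855 and 832 CPM with DMSO and 364, 306 and 387 CPM with CSC. The groups lay far apart and CENPE fell by 1.23 on the log2 scale (SE 0.06, limma-voom adjusted p = 1.1e-25), or 2.34-fold. TOP2A, the mitotic topoisomerase, went from 1558, 1621 and 1669 CPM to 809, 868 and 890.4 CPM, again without overlap, and fell by 0.92 (SE 0.04). MKI67, the proliferation marker Ki-67, fell by 0.55 (SE 0.03). PLK1 (-0.03, SE 0.11), AURKB (0.04, SE 0.16) and UBE2C (0.02, SE 0.10) did not pass the test.

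In HcRed cells 20 of the 27 fell and 1 rose (PLK1, 0.35), with a median of -0.43, and 11 fell after GC correction. In no member of the list was the difference between the lines called. The smallest unadjusted p of that difference was that of DLGAP5, a spindle protein (-0.44, SE 0.14, limma-voom adjusted p = 0.76), which fell by 0.98 in PIK3CA and by 0.54 in HcRed cells. Of 29 genes of DNA replication, 4 rose and 12 fell in PIK3CA cells, against 2 and 12 in HcRed cells, and after correction 0 rose and 4 fell. RRM2, a subunit of ribonucleotide reductase, fell by 0.29 (SE 0.06). The licensing factor CDT1 rose by 0.65 (SE 0.16), and its corrected value was 0.16 with an adjusted p of 0.61. In bulk RNA fewer cells of a kind and less RNA per cell cannot be told apart, so a smaller share of cells in mitosis and lower transcript levels in each would look alike.

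Changes of epithelial and matrix genes ranged from small to large. Of 16 basal markers 6 rose and 2 fell (5 and 3 after GC correction), and their summed level was 8338 to 8773 CPM with DMSO and 9123 to 9718 CPM with CSC. In HcRed cells 3 of them rose and 5 fell (0 and 3 after GC correction). The uncorrected limma-voom fit called no difference between the lines in this list. In PIK3CA cells the laminin genes LAMB3 (0.78, SE 0.08) and LAMA3 (0.48, SE 0.05) rose, and KRT5 fell by 0.18 (SE 0.03). Of 9 tested matrix proteases, plasminogen activators and their inhibitors 8 rose (5 after GC correction), led by SERPINB2 and the urokinase receptor PLAUR (0.91, SE 0.22). Of 17 genes of the epithelial to mesenchymal transition and matrix 7 rose and 0 fell, against 7 and 2 after correction and 5 and 3 in HcRed cells. Among the rises were SNAI2 (1.23, SE 0.16) and TGFBI (0.70, SE 0.04). VIM (-0.07, SE 0.10) and CDH2 (0.12, SE 0.26), both mesenchymal markers, did not pass the test.

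Lipid genes split. Of 24 genes of cholesterol synthesis and uptake 4 rose and 9 fell, against 3 and 2 after GC correction. SQLE, the squalene epoxidase of cholesterol synthesis, fell by 0.29 on the log2 scale (SE 0.07) and kept its call after the correction. ABCA1, which exports cholesterol, was among the 15 largest rises with 62.5, 43.1 and 46.4 CPM with DMSO and 209.8, 195 and 214 CPM with CSC (log2 change 2.07, SE 0.13) beside 2.14 (SE 0.21) in HcRed cells. Its groups did not overlap, which the naming rule required. FASN, the fatty acid synthase, rose by 0.88 (SE 0.04).

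The remaining genes among the 15 largest rises were SNORD68, a small nucleolar RNA (log2 change 2.09, SE 0.28), PORCN, an acyltransferase of Wnt ligands (1.99, SE 0.23), and G0S2, an inhibitor of triglyceride lipase (2.10, SE 0.42). G0S2 had 2 to 9 counts a library with DMSO. Among noncoding RNAs the short RMRP rose by 1.39 (SE 0.04) and RPPH1 by 1.10 (SE 0.05), while the long MALAT1 fell by 0.70 (SE 0.08). With the GC correction the RMRP value was 0.82.

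Among the 15 largest falls, 3 had more than 100 counts a library with DMSO and belong to chromosome segregation or chromatin. SGO2, which protects centromeric cohesion, went from 232, 275 and 235 CPM to 93.6, 97.5 and 109 CPM and fell by 1.30 on the log2 scale (SE 0.10). HMGB2, a chromatin protein of dividing cells, went from 339, 364 and 317 CPM to 132, 143 and 165 CPM and fell by 1.20 (SE 0.09), beside 0.74 on the same scale in HcRed cells. The third was CENPE.

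A further 11 of these falls had fewer counts, at most 48 in any library of PIK3CA cells. MNS1 (-1.46, SE 0.28) and C2orf74 (-1.23, SE 0.25) kept their call and direction under each alternative, while TEX9, FLJ44635, LOC730101, PHACTR3, SLC16A4, ZNF214, INTU, KLHL4 and ZNF726 lost the call under 1 or more. Leaving out PIK3CA CSC replicate 3 ended the calls of TEX9 (adjusted p = 0.0996), PHACTR3 (0.053), ZNF214 (0.067) and KLHL4 (0.067). Leaving out PIK3CA DMSO replicate 3 ended those of PHACTR3 (0.095) and KLHL4 (0.0501), and leaving out PIK3CA CSC replicate 2 that of ZNF214 (0.066). INTU, a protein of ciliary planar polarity, had a change of -1.24 (SE 0.31) in PIK3CA cells and of -0.20 (SE 0.29) in HcRed cells, with an adjusted p of 0.94 for the difference. All 30 of the largest changes had the same sign in HcRed cells.

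**Figure D4:**
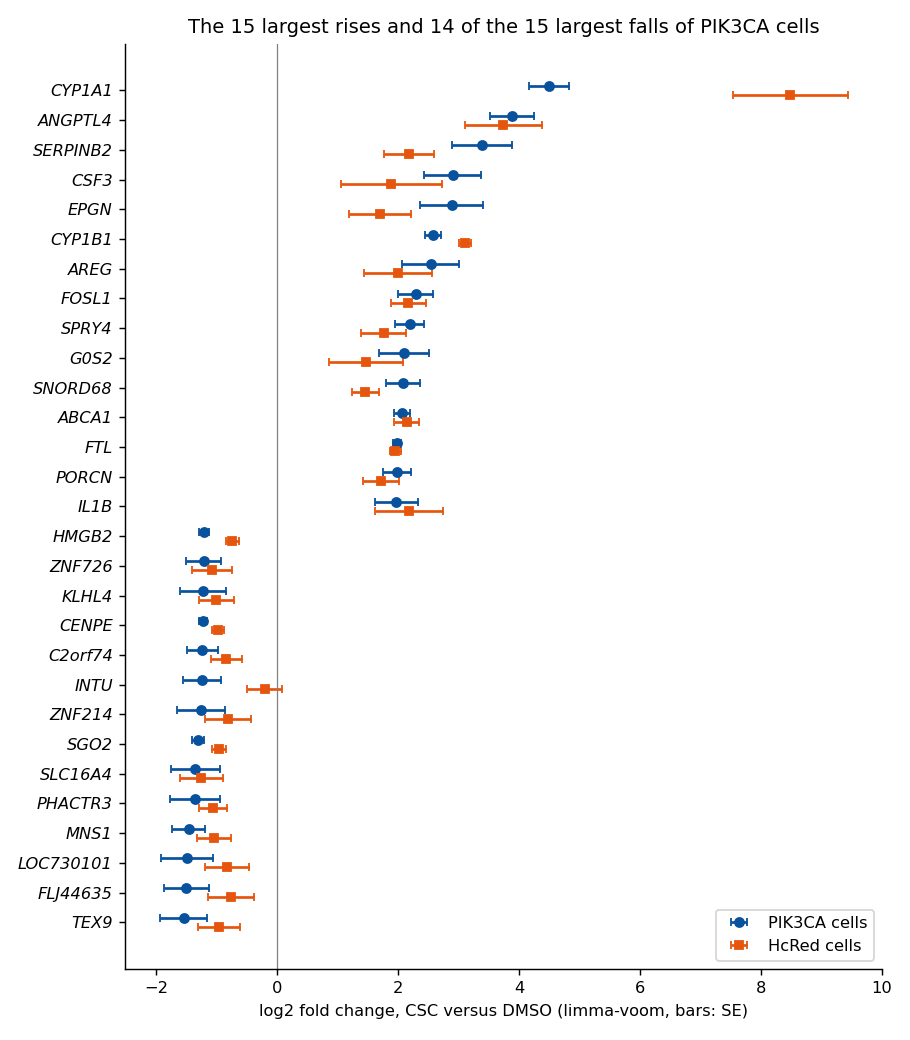
Log2 fold change (CSC versus DMSO) with its SE of the 15 largest rises and 14 of the 15 largest falls of PIK3CA cells (circles), set beside the same gene in HcRed cells (squares). Each pair of points lies on the same side of 0, and the pair lies farthest apart for CYP1A1 (4.49 and 8.48).

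Whether PIK3CA altered the response to CSC was asked by the interaction term over 12 libraries. Of 14575 genes 1 was called (0.00686% of those tested), and 761 had an unadjusted p under 0.05. If no gene differed, a share of 0.05 of the genes would have such a p, and 761 is close to that share. The called gene was FN1, encoding the matrix protein fibronectin (hg19 chr2:216225163-216300796, minus strand). It had 1656, 1557 and 1409 CPM in PIK3CA cells with DMSO and 1821, 1717 and 1575 CPM with CSC, so that the groups overlapped, while in HcRed cells it had 750.3, 808 and 758 CPM with DMSO and 585, 618 and 661 CPM with CSC. The log2 changes were 0.12 (SE 0.04) and -0.33 (SE 0.07), and they differed by 0.45 (SE 0.08, limma-voom adjusted p = 0.0094). The call was lost in DESeq2's Wald test (adjusted p = 0.095), with no count filter (0.17), among the 10000 genes of largest median absolute deviation (0.086), without HcRed DMSO replicate 2 (0.16) and without HcRed CSC replicate 2 (0.0504). FN1 was higher in PIK3CA than in HcRed cells already with DMSO, by 0.99 (SE 0.06).

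The next 4 genes by unadjusted p did not pass the threshold in limma-voom. KRT14, a keratin of basal cells, had 248 CPM ± 14.7 (SD, n = 3 throughout) with DMSO and 239.8 ± 7.60 with CSC in PIK3CA cells, and 527 ± 65.8 and 342 ± 26.3 in HcRed cells, where the groups did not overlap. The changes differed by 0.57 (SE 0.12, adjusted p = 0.082), and the term was called in edgeR's quasi-likelihood test (adjusted p = 0.029), with DESeq2's size factors (0.041), after GC correction (0.0040), without HcRed CSC replicate 1 (0.013) and without HcRed DMSO replicate 3 (0.0049). LAMA3 went from 657 ± 34.9 to 941 ± 70.3 CPM in PIK3CA cells and from 718 ± 16.2 to 785 ± 42.4 CPM in HcRed cells (difference 0.37, SE 0.08, adjusted p = 0.18). Its term was called after GC correction (0.033), after thinning to the smallest library (0.048) and without PIK3CA CSC replicate 3 (0.0030).

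DDIT3, encoding the stress factor CHOP, had 17, 40 and 19 counts with DMSO and 8, 14 and 23 with CSC in PIK3CA cells (log2 change -0.76, SE 0.30, adjusted p = 0.056), and 6, 13 and 4 with DMSO and 20, 29 and 15 with CSC in HcRed cells (1.36, SE 0.38). Its difference of -2.11 (SE 0.50) had a limma-voom adjusted p of 0.25. HIST1H1C, the linker histone H1.2, fell by 0.55 (SE 0.06) in PIK3CA cells and had a change of -0.14 (SE 0.07) in HcRed cells (difference -0.40, SE 0.10, adjusted p = 0.25), and its term was called without PIK3CA CSC replicate 1 (0.048) or PIK3CA DMSO replicate 3 (0.040). Scaled over all 95 libraries, the HIST1H1C median was lower with CSC than with DMSO in each line of the series. The DDIT3 median was lower with CSC in PIK3CA, CDKN2A, FAT1, GFP and NRG1 cells and higher in HcRed, NRF2 and FGFR1 cells. These medians were not tested.

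**Figure D5:**
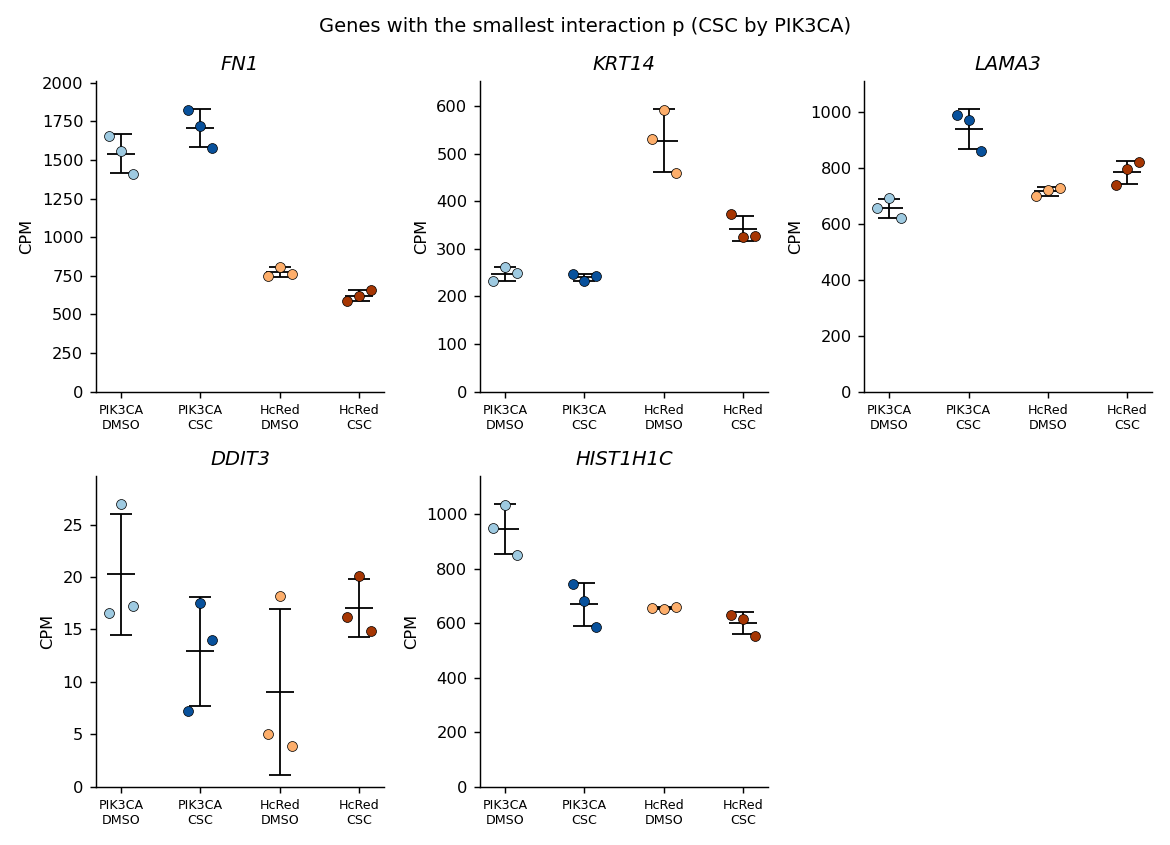
CPM of the 5 genes with the smallest unadjusted p for the interaction of CSC and PIK3CA in the 3 libraries of each group (points), with mean and SD (bars). For FN1 the PIK3CA groups overlap while the HcRed libraries with CSC lie below those with DMSO, and for KRT14 the PIK3CA libraries stay between 231 and 262 CPM.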

How the data were processed

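RNA of AALE cells was sequenced by the SFL protocol as single-end reads. Per the labels and the study's methods, the authors trimmed adapters with cutadapt 1.12, checked quality with FastQC 0.11.5, aligned to hg19 with STAR 2.5.2b and deposited featureCounts read counts per gene, without normalisation. Of 27978 listed genes, 24309 (86.9%) were matched to GENCODE models on GRCh37 for coordinates, transcript length and GC content. How reads of near-identical genes were split is not given in the sources used here.

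The 6 PIK3CA libraries (and separately the 6 HcRed libraries) were fitted with limma 3.58.1 on voom weights after TMM normalisation (edgeR 4.0.16, R 4.3.3), for genes with a mean count above 1, 2-sided, with Benjamini-Hochberg adjustment over all genes tested at 0.05. The interaction was fitted over the 12 libraries. CPM were computed on library totals multiplied by the TMM factors. For the GC correction, a loess trend (span 0.3) of each library on GC content and transcript length was removed. Simulated data with 200 changed genes were run through the PIK3CA fit in limma-voom, edgeR and DESeq2, and in limma-voom with the replicate block or GC correction. The limma-voom interaction was run on them too, while the HcRed fit and the remaining settings were not. Other settings tried were DESeq2 1.42.0, the quasi-likelihood test of edgeR, other scalings and filters (none, a mean count of 10, the 10000 most variable genes), all 95 libraries in one fit, thinning to the smallest library (694898 reads), a replicate block and leaving out each library.

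Named genes were PIK3CA, CYP1A1, the 15 largest rises and the 15 largest falls among called genes that averaged 10 counts or more and whose groups were fully separate, the 5 smallest p of the interaction, and members of 41 gene lists. Some genes that met this rule are not reported here. The members and lists were chosen with earlier results of these data known. Replicates differed beyond sampling noise within each group (chi-square per gene 1.19 to 1.84), so that none was taken as the same library read again. These values cannot show whether the replicates came from separate cultures, since separate preparations of one RNA can also differ.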

Additional observations from a re-analysis of the deposited data

Results flagged for a closer look

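The response of FN1 to CSC differed between the lines. The log2 change of PIK3CA cells minus that of HcRed cells was 0.45, as given above with the settings under which the call was lost.

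CYP1 genes were also high in PIK3CA libraries of the other compounds, which entered no comparison here and are given as medians of 3 libraries scaled over all 95 libraries. With BaP (benzo[a]pyrene, a polycyclic aromatic hydrocarbon) CYP1A1 was at 136.2 CPM and CYP1B1 at 343.7 CPM. With NNK (a nicotine-derived nitrosamine) CYP1A1 was at 43.96 CPM and CYP1B1 at 142.1 CPM. Each of these libraries lay above the DMSO libraries of PIK3CA cells, which had 5.54 to 5.93 CPM of CYP1A1 and 44.3 to 66.0 CPM of CYP1B1. For CYP1A1 the CSC libraries (124 to 150 CPM) overlapped those with BaP (104 to 149 CPM). The difference between compounds was not tested.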

How the results depend on the processing

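The count of genes called in PIK3CA cells (3254) was 1445 in DESeq2's Wald test (730 rose and 715 fell), 1121 after GC correction (717 and 404) and 2471 to 2861 without any one library. For HcRed cells (3426) these counts were 1528, 1016 and 2148 to 3280, the lowest without HcRed DMSO replicate 3. The interaction (1 gene) had 3 calls in edgeR's test, 0 in DESeq2's Wald test, 2 with DESeq2's size factors, 0 without a count filter, 0 among the 10000 most variable genes, 3 after GC correction, 2 after thinning and 0 to 6 without any one library, with 0 without HcRed CSC replicate 2 or HcRed DMSO replicate 2 and 6 without PIK3CA CSC replicate 3. The overexpression of PIK3CA stayed between 2.59 and 2.72 without any one library. Of the 30 largest changes 20 kept their call under every alternative, and the other 10 were falls. The fit restricted to genes of known GC content (1580 rises and 1629 falls) was added after seeing the data. The GC correction turned the change of PIK3CA itself from -0.12 to 0.31.

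Same-numbered libraries deviated together only weakly (correlations of 0.0039 to 0.0967), and the labels do not pair them. With a replicate block 3486 genes were called in PIK3CA cells, 3531 in HcRed cells and 4 in the interaction, and the block brought the interaction terms of KRT14 (adjusted p = 0.0092) and LAMA3 (0.017) and the change of PIK3CA (-0.15, adjusted p = 0.029) past the threshold. With the replicate block and GC correction these were 1324 (838 rose and 486 fell), 1137 and 5, and the change of PIK3CA was 0.29. At these depths genes with few counts limit what can be called: AHRR, ALDH3A1, AREG, EPGN, CSF3 and IL24 had under 10 counts in each DMSO library of PIK3CA cells.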

Other observations

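Further gene groups of PIK3CA cells with CSC are given as rises and falls, with the counts after GC correction in parentheses. Over all genes tested 11.3% rose and 11.3% fell (5.32% and 3.0%), and counts near these shares show nothing particular to a group. Of 36 proteasome subunits 10 rose and 3 fell (11 and 0), and of 20 lysosome and autophagy genes 8 rose and 1 fell (5 and 0). Of 15 glutathione transferases and conjugating enzymes 3 rose and 0 fell (3 and 0), and of 12 aldehyde dehydrogenases 3 rose and 1 fell (2 and 0). Of 76 cytosolic ribosomal protein genes, many of which have processed pseudogenes, 20 rose and 14 fell (18 and 9), and of 60 genes of the respiratory chain 10 rose and 3 fell (8 and 3). Of 19 genes of adduct repair and translesion synthesis 1 rose and 5 fell (0 and 1). Of 10 Notch pathway genes 5 rose and 0 fell (2 and 2). Of 17 genes of the unfolded protein response 3 rose and 4 fell (1 and 0), of 11 genes of fatty acid synthesis 4 rose and 2 fell (3 and 0), and of 6 ABC efflux transporters 2 rose and 0 fell (1 and 0).

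Few genes of differentiated airway cells passed the count filter. Of 26 genes of the squamous cornified envelope 11 were tested, of which 1 rose and 1 fell (1 and 0). The summed level of this list was 1318 to 1457 CPM with DMSO and 1843 to 2275 CPM with CSC, without overlap. In HcRed cells 21 of its genes were tested, of which 5 rose and 1 fell. The summed level there was 2345.5 to 2537 CPM with DMSO and 3075 to 3264 CPM with CSC, also without overlap. Of 6 tested secretory genes 1 rose (0 after correction), with a summed level of 25.4 to 39.1 CPM with DMSO and 27.5 to 39.5 CPM with CSC. Of 8 ciliated markers 2 were tested and 0 were called.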
